A study of Homo sapiens with 5 samples.

Results

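Motile cilia and sperm flagella are built on an axoneme, and 36 human genes of the axoneme, its assembly or its transcriptional control are described here in MDA-MB-231 cells given SAHA. MDA-MB-231 is an established breast cancer cell line with mesenchymal features, and SAHA (vorinostat) inhibits histone deacetylases, the enzymes that take acetyl groups off histones and other proteins. The groups were 2 arrays of cells given 2 uM SAHA and 3 arrays of cells given the vehicle DMSO, all from the same line and all collected after 30 h per the labels. Total RNA was read on oligonucleotide arrays that read a transcript through sets of probes. The extraction protocol also speaks of transfected cells, which fits no group given in the labels. Nothing says that the replicates were separate cultures, so errors and p-values cover only array-to-array spread and may be technical. The genes were taken by name, through the array annotation and its older symbols, and each gene was read through its brightest probe set, judged by the mean of the 5 arrays. This gave 35 of the 36 genes, among 19775 genes measured in all, and CCDC39 was not analysed here. Some of the 36 were noticed for their SAHA to DMSO folds. The members went through the same fit as all genes, but their differences and calls are given only as a description, with standard errors and no p-values.

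The motile axoneme is a ring of microtubule doublets around a central pair. Outer and inner dynein arms slide the doublets, radial spokes and the central apparatus set the beat, and the nexin-dynein regulatory complex links neighbouring doublets. In multiciliated epithelia the forkhead factor FOXJ1 and RFX factors, which bind a palindrome called the X-box, switch these genes on, and many axonemal genes are also active in male germ cells.

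Promoter letters are shown for the members with the highest and the lowest SAHA to DMSO differences that the sequence table held, for SPAG16 and DNAH2, which also stood apart, and for DNAH1, which did not but holds a complete X-box. Each window is 300 bases of GRCh38.p14 from RefSeq, 250 before and 50 after the annotated gene start, read along the gene. Capitals mark matches, on either strand, to the RFX core motifs GTTGCC and GTTGCTA, the complete X-box palindrome and an X-box with open bases, which can overlap the core motifs, and the forkhead core GTAAACA. ROPN1L lies at chr5:10441629-10441928 on the plus strand, DRC8 has 2 windows at chr1:244969432-244969731 and chr1:244970140-244970439 (plus), SPAG16 lies at chr2:213284214-213284513 (plus), DNAH2 at chr17:7717494-7717793 (plus) and DNAH1 at chr3:52316069-52316368 (plus).
ROPN1L: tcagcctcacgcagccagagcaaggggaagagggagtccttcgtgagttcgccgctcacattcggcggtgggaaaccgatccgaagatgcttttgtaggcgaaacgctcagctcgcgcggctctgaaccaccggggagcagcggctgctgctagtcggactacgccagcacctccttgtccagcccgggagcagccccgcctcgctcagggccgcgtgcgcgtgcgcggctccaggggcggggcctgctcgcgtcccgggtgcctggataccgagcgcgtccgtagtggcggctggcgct
DRC8 window 1: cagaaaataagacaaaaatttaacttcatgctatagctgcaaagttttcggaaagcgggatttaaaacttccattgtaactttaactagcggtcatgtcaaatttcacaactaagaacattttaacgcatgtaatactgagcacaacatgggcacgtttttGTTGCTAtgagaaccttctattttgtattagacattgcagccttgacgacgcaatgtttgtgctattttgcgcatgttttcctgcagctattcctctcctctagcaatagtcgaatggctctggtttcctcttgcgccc
DRC8 window 2: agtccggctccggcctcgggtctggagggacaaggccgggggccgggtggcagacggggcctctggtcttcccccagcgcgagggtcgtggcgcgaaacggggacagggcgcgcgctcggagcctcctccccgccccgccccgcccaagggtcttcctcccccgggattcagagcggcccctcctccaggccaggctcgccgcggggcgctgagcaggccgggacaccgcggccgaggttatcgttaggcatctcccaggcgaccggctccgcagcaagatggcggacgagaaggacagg
SPAG16: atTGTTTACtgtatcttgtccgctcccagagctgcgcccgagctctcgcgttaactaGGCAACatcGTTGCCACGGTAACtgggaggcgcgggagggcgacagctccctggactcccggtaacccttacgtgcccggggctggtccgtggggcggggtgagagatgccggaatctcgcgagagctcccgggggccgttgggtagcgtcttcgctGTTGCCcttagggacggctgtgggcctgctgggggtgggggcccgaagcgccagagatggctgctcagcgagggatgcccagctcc
DNAH2: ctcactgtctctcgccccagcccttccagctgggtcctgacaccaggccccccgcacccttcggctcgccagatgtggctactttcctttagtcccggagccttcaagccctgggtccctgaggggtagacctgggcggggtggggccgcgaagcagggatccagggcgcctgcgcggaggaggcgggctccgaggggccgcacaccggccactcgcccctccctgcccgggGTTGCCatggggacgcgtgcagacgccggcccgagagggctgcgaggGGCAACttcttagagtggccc
DNAH1: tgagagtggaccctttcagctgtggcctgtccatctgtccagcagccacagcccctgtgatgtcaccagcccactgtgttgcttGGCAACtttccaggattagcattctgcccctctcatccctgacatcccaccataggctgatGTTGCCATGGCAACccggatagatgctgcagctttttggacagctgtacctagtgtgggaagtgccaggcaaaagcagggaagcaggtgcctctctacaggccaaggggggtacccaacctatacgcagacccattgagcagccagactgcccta

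The SPAG16 window held 3 GTTGCC core motifs, 1 of them inside an X-box with open bases that starts at position -184 from the gene start, and a forkhead core at -248. DNAH2 had core motifs at -18 and 30. DNAH1 had the complete X-box at -105. ROPN1L and the second DRC8 window had no match, and the first DRC8 window had GTTGCTA at -89. Of the 36 genes, 27 had windows in the table (not RFX2, RSPH1, DNAH3, TPPP3, DNAAF1, HYDIN, DNAH17, FOXJ1 and TEKT2), and 21 of these (77.8%) held GTTGCC or GTTGCTA, against 17.4% of all 27305 genes in the table and 19.5% of the 15384 measured genes with a window. GTTGCC alone was in 14 of the 27 (51.9%, against 14.6% of all genes) and GTTGCTA in 12 (44.4%, against 3.49%). The X-box with open bases was in 2 (7.41%, against 0.593%), the complete X-box in 1 (3.7%, against 0.033%) and the forkhead core in 5 (18.5%, against 4.19%). A pair of looser X-box spellings were in 5 (18.5%, against 1.05%) and 6 (22.2%, against 2.51%). Lists read below also held core motifs. GTTGCC was in 50% of other spoke, regulatory complex, central apparatus and doublet genes and 48.6% of intraflagellar transport and BBSome genes. It was in 46.2% of 13 multiciliated cell regulators and further RFX genes, 26.1% of other dynein arm, docking and assembly genes and 25% of germ cell genes. GTTGCTA was in 10% to 30.4% of each list and the forkhead core in up to 7.69%. The 13 regulators and further RFX genes held each X-box spelling in a higher share than the 27 (7.69% to 30.8%). These shares rest on 1 to 4 genes each. These matches are letters in a window and not measured sites. Median GC content was 60.3% in the 27 and 58.3% over all genes.

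The SAHA and DMSO arrays also differed in their control signals. Log2 intensities correlated at 0.99719 to 0.9986 within groups and 0.97911 to 0.98013 between groups. The poly-A controls were at 10.01 and 10.05 in SAHA and 9.54 to 9.74 in DMSO. The 3' minus 5' signal of ACTB, a measure of RNA integrity and labelling, was 2.16 and 2.04 in SAHA and 3.29, 2.08 and 2.22 in DMSO, DMSO 1 standing apart. Mesenchymal markers of the line summed to 53883 and 49437 in SAHA and 58193 to 58649 in DMSO, against 1890 and 1800 in SAHA and 1917 to 2069 in DMSO for luminal breast markers.

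Core motifs were found both in members with SAHA to DMSO differences and in members without. Of the members called different in the fit described next, 7 had a window and 4 of these held a core motif, against 16 of the 19 members with a window that were not called. DNAH1, with the complete X-box, had log2 intensities of 6.55 and 7.01 on the SAHA arrays and 6.76, 6.88 and 6.76 on the DMSO arrays. Its SAHA arrays lay on either side of the DMSO arrays.

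SAHA to DMSO differences of the 35 genes went both ways. ROPN1L and RSPH1, both of the radial spoke, had the highest differences. DRC8, of the nexin-dynein regulatory complex, had the lowest, and the dynein heavy chain DNAH2 the next lowest. RFX3, SPAG16, RFX2, CFAP44 and DNAH5 were higher by 0.46 to 0.72 on the log2 scale. The remaining 26 lay between -0.19 and 0.26. Values are log2 intensities of the authors' processed table, and a difference is the SAHA mean minus the DMSO mean, from a limma fit across all 19775 genes in which a gene is called at a Benjamini-Hochberg adjusted p under 0.05. Of the 35, 7 were called higher and 2 lower, where 14% and 15.6% of all genes were called higher and lower (29.6% in either direction, and 41.1% of genes above the array median). Some members were chosen for this contrast, so nothing is read from that count. Without DMSO 1, whose ACTB signal stood apart, all 9 kept their direction. Left out in turn, each of DMSO 1, DMSO 2 and DMSO 3 left 4 members called higher and 2 lower. In those fits 1769 to 2075 of all 19775 genes were called higher and 1985 to 2353 lower. Leaving out a SAHA array leaves only 1, so member calls are not counted for those fits. The member median was 0.093 without SAHA 1 and 0.015 without SAHA 2. With each array centred on spiked-in poly-A control RNAs, every log2 difference fell by 0.37 and the median of all genes was -0.40. Under that centring 4 members were called higher and 23 lower, against 1361 and 14548 of all 19775 genes. As deposited, the median difference of the 35 was 0.04, and that of all genes -0.03. In 9 members both SAHA arrays lay above all DMSO arrays and in 4 both lay below, where 22.1% and 26% of all genes did so. Levels were mostly dim: 23 of the 35 had a DMSO mean below the array median of all probe sets (6.492 to 6.497). Of all 19775 genes, 6843 did. Without detection calls in the deposited table, how far any member lay above background cannot be said. In bulk RNA, fewer expressing cells and less RNA per cell cannot be told apart.

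**Figure D1:**
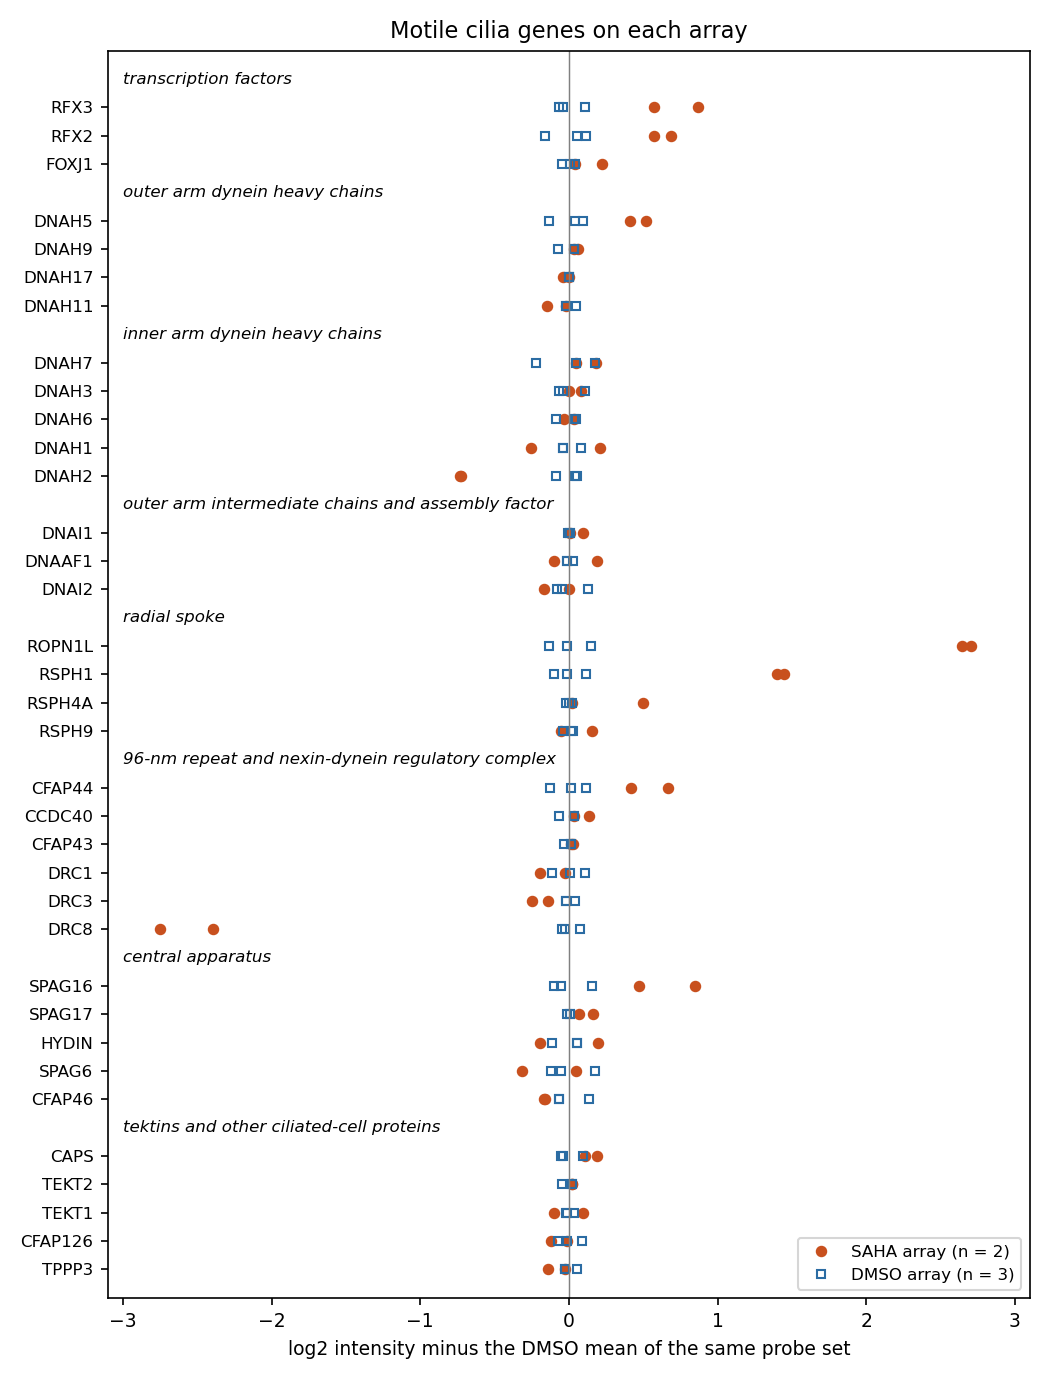
Log2 intensity of each of the 35 measured genes on each array, relative to the DMSO mean of its probe set, grouped by role. Filled circles are SAHA arrays (n = 2) and open squares DMSO arrays (n = 3). ROPN1L and RSPH1 lie far to the right, DRC8 and DNAH2 to the left, and most genes sit on the DMSO values.

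Among the transcription factors, both RFX genes were higher in SAHA, while the FOXJ1 groups overlapped. With centring on the poly-A controls RFX3 and RFX2 were at 0.35 and 0.26 and FOXJ1 at -0.24. RFX3, an X-box factor of ciliogenesis, had 7.20 and 6.90 in SAHA and 6.44, 6.27 and 6.29 in DMSO. Its difference was 0.72 ± 0.11 (SE), or 1.65-fold. Both SAHA arrays lay above all DMSO arrays, with SAHA 1 the higher. RFX2, its close relative, had 7.93 and 8.04 in SAHA and 7.41, 7.19 and 7.47 in DMSO, a difference of 0.63 ± 0.10 (SE), without overlap. FOXJ1, the forkhead regulator of motile cilia, had 6.91 and 6.72 in SAHA and 6.72, 6.64 and 6.69 in DMSO. SAHA 2 held the same FOXJ1 value as DMSO 1, and the difference was 0.13 ± 0.07 (SE). With the mean of all probe sets of a gene, RFX3 gave 0.35 and RFX2 0.21. The second RFX2 probe set, which can share sequence with other transcripts, was at -0.24.

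**Figure D2:**
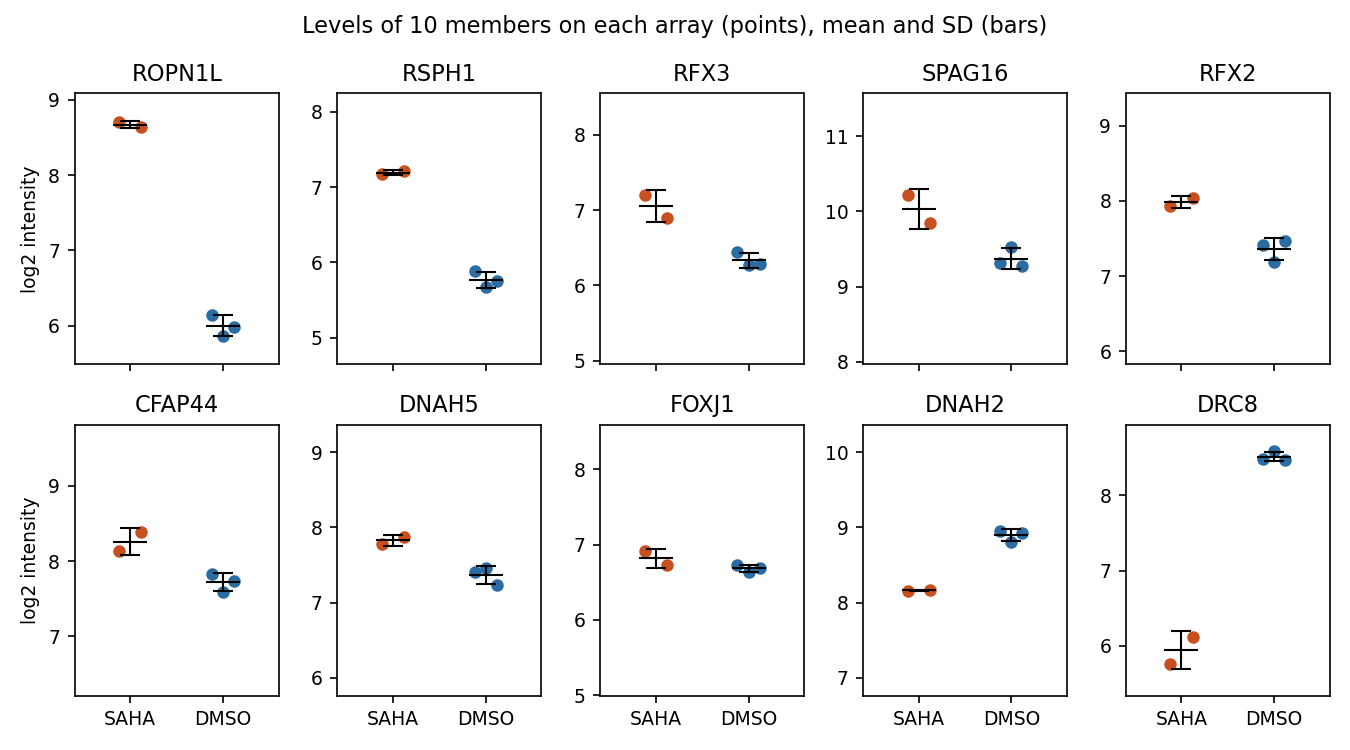
Log2 intensity of 10 genes on each array (points), SAHA left and DMSO right in each panel, with the mean and SD (bars); every panel spans the same number of log2 units. SAHA and DMSO arrays are separate in every panel except FOXJ1, with DNAH2 and DRC8 lower in SAHA and the other 7 higher.

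The radial spoke held the highest members. ROPN1L, a spoke stalk protein that also binds kinase anchoring proteins, had 8.70 and 8.64 in SAHA and 6.14, 5.86 and 5.98 in DMSO. The groups lay more than 2 log2 units apart, and the difference was 2.67 ± 0.09 (SE), or 6.38-fold. RSPH1, of the spoke head, had 7.17 and 7.22 in SAHA and 5.88, 5.67 and 5.76 in DMSO. Both SAHA arrays again lay above all DMSO arrays, with a difference of 1.42 ± 0.07 (SE), or 2.68-fold. The DMSO levels of both genes were below the array median. The other spoke head genes did not separate. RSPH9 had 5.17 and 5.39 in SAHA and 5.24, 5.26 and 5.19 in DMSO. RSPH4A had 2.86 and 3.34 in SAHA and 2.86, 2.84 and 2.82 in DMSO, near the bottom of the scale. The RSPH4A difference of 0.26 came from SAHA 2 and was 0.02 without it.

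Members of the regulatory complex and of the structures along the axonemal repeat lay at both ends. DRC8, an EF-hand subunit of the regulatory complex formerly called EFCAB2, had 5.77 and 6.12 in SAHA and 8.49, 8.59 and 8.47 in DMSO. All DMSO arrays lay more than 2 log2 units above both SAHA arrays. The difference was -2.57 ± 0.12 (SE), which is 5.94-fold lower. CFAP44, part of the complex that tethers an inner dynein, had 8.13 and 8.38 in SAHA and 7.83, 7.59 and 7.73 in DMSO, a difference of 0.54 ± 0.11 (SE). The CFAP44 groups did not overlap. DRC1 and DRC3, further subunits of the regulatory complex, had differences of -0.11 and -0.19, and the DRC3 arrays did not overlap (6.09 and 6.20 in SAHA against 6.31, 6.31 and 6.37 in DMSO). CCDC40, part of the ruler that spaces the axonemal repeat, and CFAP43, the partner of CFAP44, were at 0.08 and 0.02 with overlapping groups.

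Of the 9 dynein heavy chains, the motor subunits, DNAH5 was higher and DNAH2 lower, and the other 7 overlapped between the groups in their brightest probe sets. DNAH5, an outer arm chain, had 7.78 and 7.88 in SAHA and 7.40, 7.46 and 7.23 in DMSO. Its difference was 0.46 ± 0.09 (SE). DNAH2, an inner arm chain, had 8.16 and 8.17 in SAHA and 8.94, 8.80 and 8.93 in DMSO. The SAHA arrays were nearly equal and lay below all DMSO arrays, with a difference of -0.73 ± 0.06 (SE), or 1.66-fold lower. The outer arm chains DNAH9, DNAH11 and DNAH17 were at 0.05, -0.08 and -0.02, and the inner arm chains DNAH1, DNAH3, DNAH6 and DNAH7 ranged from -0.02 to 0.12. The outer arm intermediate chains DNAI1 and DNAI2 and the cytosolic assembly factor DNAAF1 ranged from -0.09 to 0.05, also with overlap.

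In the central apparatus SPAG16 was higher in SAHA. It had 10.22 and 9.85 in SAHA and 9.32, 9.53 and 9.27 in DMSO, with a difference of 0.66 ± 0.14 (SE) and no overlap. SAHA 1 was the higher of the SAHA arrays. The difference was 0.85 without SAHA 2 and 0.47 without SAHA 1. SPAG17 was at 0.12, with both SAHA arrays (4.55 and 4.64) above the DMSO arrays (4.49, 4.49 and 4.47) from a dim level. HYDIN and SPAG6, also of the central pair, were at 0.00 and -0.13 with overlap. CFAP46, a central apparatus protein, was at -0.16 without overlap (5.90 and 5.90 in SAHA against a DMSO mean of 6.06 ± 0.11, SD, n = 3). The tektins TEKT1 and TEKT2, which form filaments in the doublet, the basal body protein CFAP126 and the tubulin-binding TPPP3 ranged from -0.09 to 0.02. CAPS, a calcium-binding protein abundant in ciliated epithelia, was at 0.15, with 7.76 and 7.68 in SAHA just above 7.52, 7.53 and 7.66 in DMSO. TEKT2 had the same value on both SAHA arrays, DMSO 1 and DMSO 2. Equal values on at least 3 of the 5 arrays were found in 8 of the 35 genes and in 4140 of all 19775 genes.

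Other probe sets of the same genes moved some of these differences. The 35 genes had 96 probe sets, 24 genes having more than 1 and DNAH1 having 13. Of the 61 that were not the brightest, 48 differed by under 0.2 on the log2 scale and 5 by at least 0.5. The second DNAH5 probe set was at 0.79 and the second CFAP44 probe set at 0.76, both with every SAHA array above every DMSO array. A second DRC8 probe set of nearly equal brightness was at -0.58, with 7.12 and 7.03 in SAHA and 7.81, 7.65 and 7.52 in DMSO. A dim one was at -0.44 and the dimmest had equal values on all arrays, so with its probe sets averaged DRC8 gave -0.90. The second ROPN1L probe set, dim on all arrays, was at 0.12, and the average was 1.39. Averages were 0.21 for SPAG16 and -0.37 for DNAH2. RSPH1 has 1 probe set. CFAP43 had a dim probe set at 0.83 (4.48 and 4.14 in SAHA against 3.41, 3.50 and 3.54 in DMSO), and a CFAP46 probe set was at -0.53. A DNAH7 probe set nearly as bright as the one used was at 0.47, with 6.33 and 6.62 in SAHA and 6.05, 5.92 and 6.05 in DMSO, so the overlap of the DNAH7 groups holds for the brightest probe set only.

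**Figure D3:**
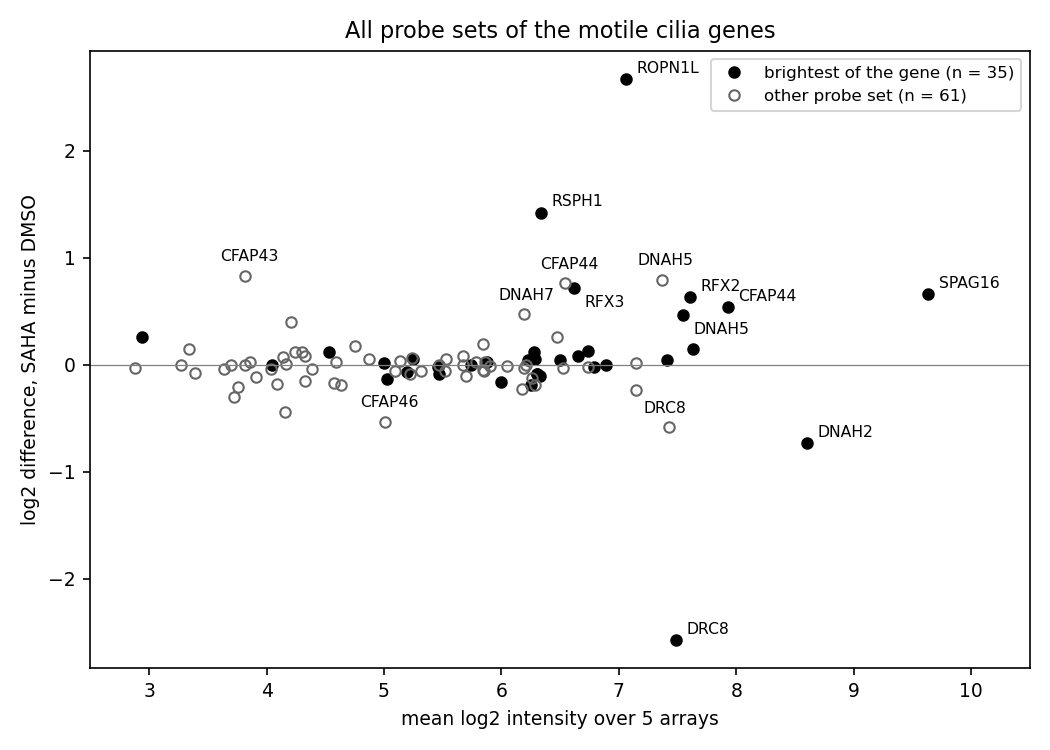
SAHA minus DMSO log2 difference of all 96 probe sets of the 35 genes against their mean log2 intensity over the 5 arrays. Filled points are the brightest probe set of each gene (n = 35) and open points the others (n = 61). Labels mark differences of the highest size; most points lie near 0 at every level.

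Genes of the axoneme and of its assembly outside the 36 were then read in the same fit, in 2 lists. These lists, like those below, were chosen with earlier results of these data known, so their counts are no independent check. Of 83 measured genes, 20 rose and 3 fell, against 14% and 15.6% of all genes. Their median log2 fold was 0.04, against -0.03 for all genes. Of the 83, 50 lay within 0.2 of 0, as did 11383 of all 19775 genes. With each array centred on spiked-in poly-A control RNAs, 15 of the 83 were called higher and 46 lower. Of all 19775 genes, that centring called 1361 higher and 14548 lower. In the list of dynein arm, docking and assembly genes 10 of 30 rose and 2 fell, with a median of 0.15. DAW1, known in zebrafish and algae for delivering outer arm dyneins, rose 8.44-fold. It had 9.63 and 9.28 in SAHA and 6.35, 6.22 and 6.57 in DMSO (log2 fold 3.08 ± 0.15, SE; limma adjusted p = 0.000721). CFAP300, DNAAF3 and DNAAF4, all factors that assemble dynein arms in the cytosol, rose by 1.56, 1.34 and 1.12 (limma adjusted p = 0.000675, 0.00075 and 0.00288). Of the genes of this list that fell, named for their small number, DYNLT2 was at -0.59 and CFAP298 at -0.29. The DYNLT2 call ended without SAHA 1, SAHA 2, DMSO 2 or DMSO 3, and that of CFAP298 without SAHA 1, SAHA 2, DMSO 1 or DMSO 3.

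In the list of other spoke, regulatory complex, central apparatus and doublet genes 10 of 53 rose and 1 fell, with a median of 0.02. NME5, a spoke protein related to nucleoside diphosphate kinases, rose 4.05-fold, with 8.71 and 8.76 in SAHA and 6.83, 6.69 and 6.64 in DMSO (limma adjusted p = 0.000491). IQUB, a spoke protein in mouse, rose by 1.64 ± 0.20 (SE) from a dim level of 4.37 ± 0.15 (SD, n = 3). PIERCE2, which in mouse and zebrafish helps to dock outer arms on the doublet, rose by 1.49, and DRC10, of the regulatory complex, by 1.25. Limma adjusted p-values of IQUB, PIERCE2 and DRC10 were 0.00539, 0.000673 and 0.00109. The gene that fell, named for the same reason, was the doublet protein CFAP20 (-0.30), a call that ended without SAHA 1, DMSO 1, DMSO 2 or DMSO 3. Across both lists the risen count was 17 without SAHA 1, SAHA 2 or DMSO 1, 15 without DMSO 2 and 18 without DMSO 3. The fallen count was 6 without SAHA 2, 1 without SAHA 1, DMSO 1 or DMSO 2, and 0 without DMSO 3.

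**Figure D4:**
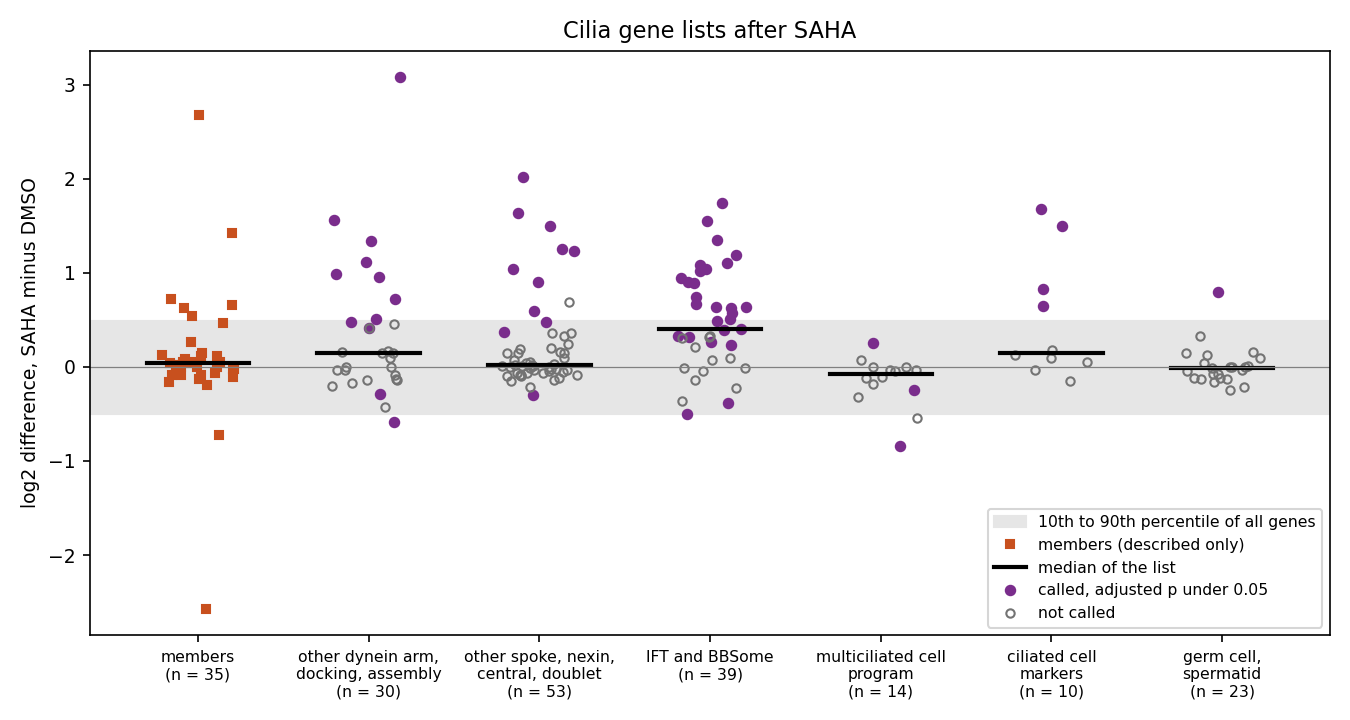
SAHA minus DMSO log2 differences by gene list (points are genes, black lines medians, grey band the 10th to 90th percentile of all genes). Filled circles passed the limma test at adjusted p under 0.05, and the 35 members (squares) are shown as a description only. The list of intraflagellar transport (IFT) and BBSome genes has the highest median, 0.40 as deposited and 0.03 after poly-A centring. The median of all genes was -0.03 as deposited and -0.40 after that centring.

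Genes of intraflagellar transport and the BBSome, which carry cargo in primary and motile cilia alike, were mostly higher in SAHA on the deposited scale. Of 39 measured, 25 rose and 2 fell, with a median log2 fold of 0.40; with centring on the poly-A controls 14 were called higher and 10 lower and the median was 0.03. Most of this list is bright: 3 of 39 genes had a DMSO mean below the array median, against 6843 of the 19775 genes. Among the 12931 genes above it, 18.2% were called higher and 22.9% lower. ARL6, the small GTPase that recruits the BBSome to membranes, rose 3.35-fold, with 9.57 and 9.29 in SAHA and 7.88, 7.68 and 7.49 in DMSO (limma adjusted p = 0.00196). IFT80, a train subunit, rose by 1.55, the kinesin motor subunit KIF3A by 1.35 and the BBSome subunit BBS9 by 1.19 (limma adjusted p = 0.00576, 0.0035 and 0.00211). Without SAHA 1 the IFT80 call ended (limma adjusted p = 0.056), and its averaged probe sets gave 0.77. The genes that fell were DYNC2I2 (-0.50), of the retrograde motor, and IFT74 (-0.38), named for their small number. The IFT74 call ended without DMSO 1, DMSO 2 or DMSO 3. The risen count was 15 without SAHA 1, 16 without DMSO 1, 16 without shared-sequence probe sets and 20 without SAHA 2.

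**Figure D5:**
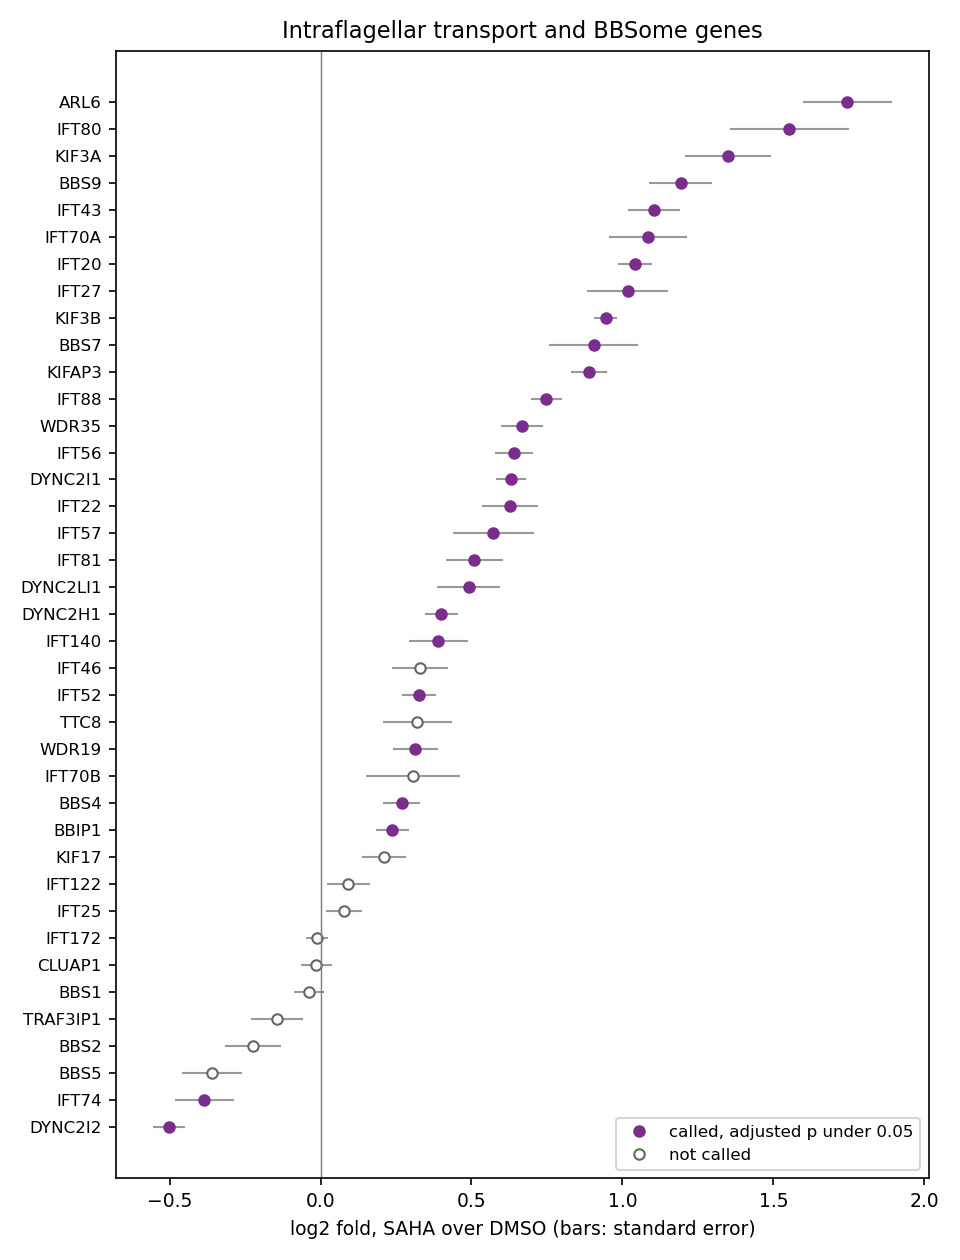
Log2 fold, SAHA over DMSO, of 39 intraflagellar transport and BBSome genes with standard errors (bars). Filled points passed the limma test at adjusted p under 0.05: 25 were higher and 2 lower in SAHA as deposited, while poly-A centring gave 14 higher and 10 lower. Of all 19775 genes, that centring called 1361 higher and 14548 lower.

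A list of multiciliated cell regulators and further RFX genes had 14 measured members. Of these 1 rose and 2 fell (21.4% called, against 29.6% of all genes), with a median of -0.08. CCNO, a cyclin needed to multiply centrioles, was 7.06 and 7.51 in SAHA and 8.12, 7.98 and 8.27 in DMSO (log2 fold -0.84 ± 0.17, SE; limma adjusted p = 0.0219). Its call ended without SAHA 1, DMSO 1, DMSO 2 or DMSO 3 (limma adjusted p = 0.0639 to 0.0923). RFX6, an RFX factor of the pancreatic islet, was at 0.26 from a dim level that was equal on all DMSO arrays, and it was at -0.11 with centring on the poly-A controls. RFX5, of MHC class II control, was at -0.24, and both calls ended without each of DMSO 1, DMSO 2 and DMSO 3, that of RFX5 also without SAHA 1 or SAHA 2.

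Markers of ciliated epithelial cells outside the 36 were read as well. Of 10 measured, 4 were called higher and 0 lower by limma, against 14% and 15.6% of all genes. Within 0.2 of 0 lay 11383 of all 19775 genes and 6 of the 10 markers. The median of these markers was 0.15, and none was lower at an unadjusted p under 0.05. Their summed intensity was 4426 and 4105 in SAHA and 1846 to 1938 in DMSO. MLF1, a bright gene, made up most of that sum, with 11.75 and 11.59 in SAHA and 10.10, 10.21 and 10.23 in DMSO (limma adjusted p = 0.0007). CAPSL, a relative of CAPS, rose by 1.68, a call that ended without SAHA 1, SAHA 2 or DMSO 1 (limma adjusted p = 0.108, 0.0835 and 0.0532). SNTN, of the ciliary tip, rose by 0.83 from a dim level, and CIMAP3 by 0.65, which lost its call without SAHA 1, SAHA 2 or DMSO 3. Markers of secretory and basal epithelial cells had 0 of 10 called higher (also 0 at an unadjusted p under 0.05) and 1 lower by limma, against the same 14% and 15.6%, with sums of 1734 and 1856 in SAHA and 2025 to 2108 in DMSO. The part of these cell types in the members' values was not tested.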

How the data were processed

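Total RNA of MDA-MB-231 cells (2 SAHA and 3 DMSO arrays) was measured on oligonucleotide arrays. The deposited values are linear intensities that the authors made by RMA in R, per the submitters' processing notes; a genome build and further settings are not given in the sources used here. Intensities were turned to log2. Of 54675 probe sets, 62 controls were set aside, 41091 named 1 gene, 1801 several and 11721 none, and only the first kind was used, with symbols updated through RefSeq (41037 updated, 54 kept). The probe set with the highest mean stood for a gene. Differences were fitted over all 19775 genes with limma 3.58.1 (lmFit, eBayes, no covariates) in R 4.3.3, with Benjamini-Hochberg adjustment over all genes. Medians of the arrays were 88.8 and 91.2 in SAHA and 90.0 to 90.3 in DMSO; the number of arrays limits precision, with 3 residual degrees of freedom. On simulated data with 19775 genes the fit called 84% of 2-fold and 52% of 1.41-fold changes with the right sign. Of the genes called there, 2.16% were not changed. Whether these shares hold for the arrays used here, which may be technical replicates, was not tested. Members and lists were chosen with earlier results of these data known. Beyond the members, the text names up to 4 called genes of each list with the largest folds, and the few genes of a list that fell, chosen after their values were seen. The alternatives, 13 in number, were further quantile normalization, centring on 24 poly-A control probe sets, a filter at the 40th percentile, the mean of all probe sets, no shared-sequence probe sets, eBayes with trend and robust, array weights, a replicate block and each array left out; their effect on the transport and BBSome count and on the named fallen genes was added after seeing the data. Promoter motifs were searched on both strands of RefSeq windows of GRCh38.p14.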

Additional observations from a re-analysis of the deposited data

How the results depend on the processing

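With centring on the poly-A controls, 15909 genes were called (1361 higher, 14548 lower) against 5849 (2760 higher, 3089 lower), 61 other axoneme genes against 23, and 14 transport and BBSome genes higher against 25, with a member median of -0.33 against 0.04; this centring lowers every difference by construction. RFX6 turned to -0.11 there (limma adjusted p = 0.406, against 0.0255 as deposited). Without genes below the 40th percentile the member median was 0.31, fewer members being left. Without shared-sequence probe sets 16 transport and BBSome genes were higher. Leaving out 1 array at a time gave 3754 to 5031 genes called (3754 without DMSO 3), 16 to 23 other axoneme genes, 15 to 20 transport and BBSome genes higher, and a member median of 0.015 to 0.093 (0.093 without SAHA 1). The labels number the replicates alike but do not say that the numbers pair SAHA and DMSO arrays, so they were not taken to. Deviations from the group means correlated at r = 0.15 and -0.067 between arrays of 1 number. With 2 SAHA arrays these deviations mirror each other, so these values cannot decide whether arrays were paired. With the replicate block 2578 genes, 11 other axoneme genes and 13 transport and BBSome genes higher were called. Of the 31 genes named outside the members, 18 lost a call under at least 1 alternative, 15 of them with the replicate block. The other 13 kept it under each alternative they could be run in, which was all 13 alternatives for 10 of them, since filters on dim or shared-sequence probe sets removed some genes. Signal over background is unknown, which limits what the dim members can show.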

Other observations

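Axonemal genes are also used in the male germ line, and germ cell and spermatid genes outside the members were read in the same limma fit. Of 23 measured, 1 rose and 0 fell, against 14% and 15.6% of all genes, with a median log2 fold of -0.01. A DMSO mean below the array median was found in 6843 of all 19775 genes and in 20 of the 23. By an unadjusted p under 0.05, 3 were higher and 0 lower. The gene that rose was TEX14, which is needed for the bridges between germ cells. It had 6.75 and 6.80 in SAHA and 5.79 to 6.14 in DMSO (log2 fold 0.80 ± 0.11, SE; limma adjusted p = 0.00822). Its call ended without SAHA 1 (limma adjusted p = 0.077) and without SAHA 2 (limma adjusted p = 0.0744). Among luminal breast markers ERBB3, a receptor of the EGF family, rose by 1.61, and the secretory regulator XBP1 fell by 1.37 on the log2 scale (limma adjusted p = 0.001 and 0.00568). GATA3, a luminal regulator, was at -0.26, a call that ended without SAHA 1, SAHA 2, DMSO 2 or DMSO 3. Of 6 mesenchymal markers 0 were called higher and 2 lower by limma, with 0 higher at an unadjusted p under 0.05: AXL, a receptor kinase, was at -0.33 and MSN, which ties actin to the membrane, at -0.37. The AXL call ended without SAHA 1, SAHA 2, DMSO 1 or DMSO 3, and that of MSN without SAHA 2 or DMSO 2 and with its probe sets averaged (limma adjusted p = 0.0764). PAX8, the called gene among secretory and basal markers, was at -0.36.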
